A study of Homo sapiens with 6 samples.

Results

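The insulin-like growth factor (IGF) axis was taken here as 10 genes listed by name, with earlier results of these data known. They were the ligands IGF1 and IGF2, the receptors IGF1R and IGF2R, and the binding proteins IGFBP2 to IGFBP7. Of these 10, 8 had a probe set annotated with a single gene symbol, out of 18417 genes measured in that way. The other two, IGF2 and IGFBP6, lay only on probe sets shared with other genes and are given apart. Where a gene had more than 1 such probe set, the one with the highest mean over all arrays stood for it. The study lowered P68, a DEAD-box RNA helicase whose gene is DDX5, and its title ties P68 to DUSP5 and to growth and invasion of glioma cells. Total RNA was hybridised to 6 Affymetrix arrays, 3 for each of the labels P68 Knockdown and P68 Wild Type. All 6 arrays carry the label U-87, an established human glioma cell line, grown in medium with fetal bovine serum. The treatment note speaks of transfection with siP68, a small interfering RNA against P68, or with a reagent called NC, and no label ties NC to the wild-type arrays. The labels do not say whether replicates were separate cultures, so each p-value reflects how much these arrays vary, and that variation may be only technical.

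IGF1 and IGF2 are small secreted peptides, related to insulin, that drive growth and survival through IGF1R, a receptor tyrosine kinase coupled to the PI3K-AKT and ERK pathways. IGF2R binds IGF2 and mannose-6-phosphate-tagged enzymes and carries them to lysosomes, so it clears IGF2 rather than signalling as a kinase. The binding proteins hold IGFs in the fluid around cells, lengthen their life and keep them from the receptor or bring them to it. IGFBP2 also carries an integrin-binding motif and is known as a protein that is abundant in high-grade glioma. Fetal bovine serum brings IGFs and binding proteins of its own, which an RNA array does not read.

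IGFBP2 and IGFBP5 are next to each other on chromosome 2 on opposite strands, with 0 protein-coding genes between them in GRCh38.p14. They were the 2 members whose groups did not overlap, in opposite directions, so the DNA just before their start sites is shown here. The sequences are RefSeq's (GRCh38.p14), 250 bases ending at the base before the start site and written 5′ to 3′ on the gene's own strand. Capitals mark GGGCGG, the core of a GC box, or TATAAA, the core of a TATA box, searched on both strands. IGFBP2 has 3 start sites in the table used, and the middle one is shown, at chr2:216633170-216633419 on the plus strand. IGFBP5 has 1, at chr2:216695550-216695799 on the minus strand.
IGFBP2: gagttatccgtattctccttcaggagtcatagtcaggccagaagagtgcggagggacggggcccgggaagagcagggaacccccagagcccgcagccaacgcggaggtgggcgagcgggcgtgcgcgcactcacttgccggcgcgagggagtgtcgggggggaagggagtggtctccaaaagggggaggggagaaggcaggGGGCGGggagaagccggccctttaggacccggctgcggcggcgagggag
IGFBP5: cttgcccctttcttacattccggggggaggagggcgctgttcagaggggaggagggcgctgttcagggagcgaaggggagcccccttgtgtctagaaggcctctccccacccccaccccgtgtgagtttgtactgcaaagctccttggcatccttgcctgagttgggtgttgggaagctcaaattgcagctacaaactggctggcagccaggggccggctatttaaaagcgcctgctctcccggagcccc
The IGFBP2 window shown held 1 GGGCGG, 49 bases before the start, and no TATAAA, and 69.2% of its bases were G or C. The first IGFBP2 window had 56.8% G or C and 1 GGGCGG, and the third had 56.4% and none. The IGFBP5 window held neither string and had 61.2% G or C. Over all 35116 windows of this length, 42.6% held GGGCGG, 10.7% held TATAAA and the median G and C content was 58%. Promoter windows were matched for 8 of the 10 genes, IGF2 and IGFBP7 having no entry. GGGCGG was present in a window of IGF1R, IGF2R, IGFBP2, IGFBP3, IGFBP4 and IGFBP6, and TATAAA was present in that of IGFBP4 alone, 29 bases before its start. A pair of the 6 GGGCGG matches in the IGF2R window share letters. These matches describe letters and were not tested as binding sites. Only these exact strings were searched, so variants of either core are not marked.

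Signals are log2 values from RMA, a method that equalises the distribution of signal over the arrays, so a change shared by most genes is not visible in them. Array medians lay between 4.32 and 4.37. DDX5, the target, read 9.47, 9.79 and 9.91 on knockdown arrays 1, 2 and 3 and 10.09, 10.25 and 10.30 on wild-type arrays. That left the knockdown at 71.2% of the wild-type signal (95% interval 58.4% to 86.9%), with no overlap between the groups. The unadjusted p for DDX5 was 0.00337 and its adjusted p 0.902 in limma, so the target itself did not pass the threshold. Arrays of different groups were as alike as arrays of the same group, with r = 0.980 to 0.990 across groups, 0.979 to 0.986 within the knockdown and 0.987 to 0.990 within the wild type. Of 9 markers of mesenchymal glioma cells, 7 lay above the dimmest 40% of genes, with the intermediate filament VIM at 7.50 ± 0.38 and 7.70 ± 0.15 in knockdown and wild type (mean ± SD, n = 3 each). The hyaluronan receptor CD44 and the matrix protein TNC, which U-87 cells are known to express, lay among the dimmest 40%, with CD44 at 3.60 ± 0.18 and 3.58 ± 0.03 (SD, n = 3 each). Without detection calls, dim signals may be background.

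None of the 8 measured members differed between knockdown and wild type at an adjusted p under 0.05 in limma, where the background over all 18417 genes tested was 0%. Members with an unadjusted limma p under 0.05 were IGFBP2, higher in the knockdown (background 3.02% of genes in that direction), and IGFBP5, lower (background 2.06%). With arrays centred on their medians, the genes past that unadjusted limit were 443 higher and 484 lower, against 557 and 380 as deposited, while these values for IGFBP2 and IGFBP5 kept their directions. The same 2 members were those whose groups did not overlap, where the background was 10.1% of genes in either direction, 5.98% higher and 4.15% lower. Among the 8, 5 values were positive and 3 negative (median log2 difference 0.04), beside 52.5% above 0 and a median of 0.01 over all genes.

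**Figure D1:**
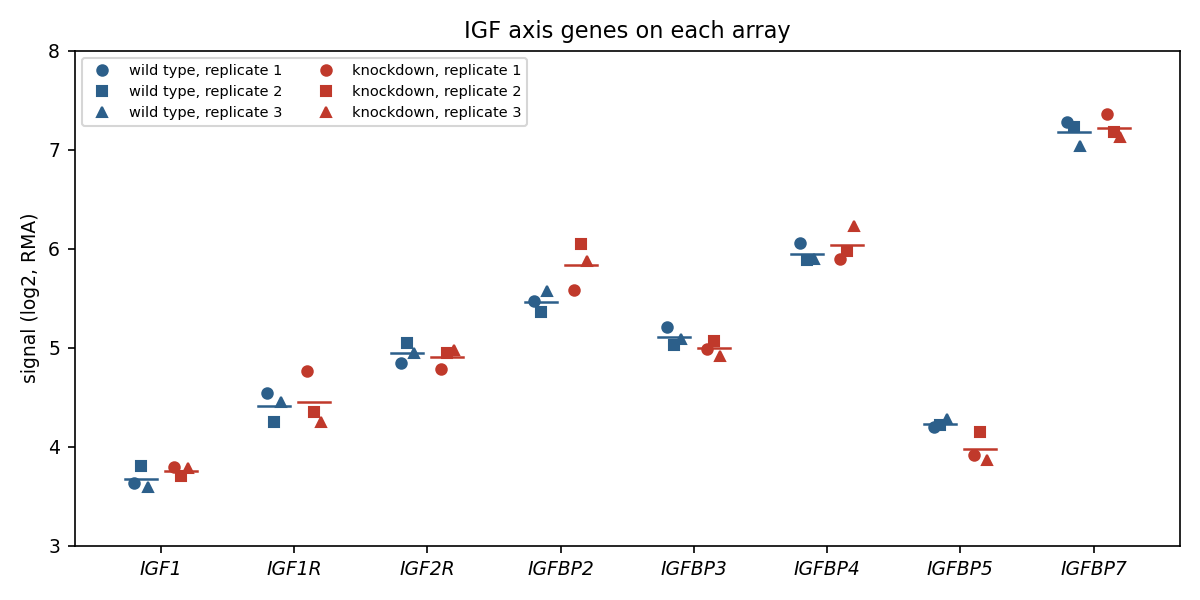
Signal (log2, RMA) of the 8 measured IGF axis genes on each of the 6 arrays, wild type in blue and knockdown in red, with a symbol per replicate and a line at each group mean. The groups are apart for IGFBP2, by 0.01, and for IGFBP5, by 0.05, and they overlap for the other genes. Heights are not comparable between genes.

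The ligand IGF1 was dim on every array. It read 3.79, 3.70 and 3.78 on knockdown arrays 1, 2 and 3 and 3.63, 3.80 and 3.59 on wild-type arrays. The highest of the 6 values was a wild-type array, so the groups overlapped. The log2 difference was 0.08 ± 0.10 (SE), with a 95% interval of -0.14 to 0.31 and an adjusted p of 0.929 in limma. IGF1 lay among the dimmest 40% of genes, and without detection calls its signal may be background. IGF2, the ligand that IGF2R clears, shares its probe set with INS and the INS-IGF2 readthrough gene, its neighbours on chromosome 11. That probe set read 5.56, 5.86 and 5.78 on the knockdown arrays and 5.61, 5.66 and 5.67 on wild-type arrays. The knockdown values spread around the close wild-type values on both sides. For this shared probe set the log2 difference was 0.09 ± 0.11 (SE), with an interval of -0.16 to 0.33 and an adjusted p of 0.937 in limma over all probe sets, and it cannot be assigned to IGF2. H19, the imprinted non-coding RNA of the same region, is likewise on a shared probe set (with RPS12), which gave 0.12 ± 0.13 (log2 difference ± SE).

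IGF1R, the signalling receptor, was the most variable of the members between replicates. It read 4.76, 4.35 and 4.25 on knockdown arrays 1, 2 and 3 and 4.54, 4.25 and 4.45 on wild-type arrays. Knockdown replicate 1 held the highest value and knockdown replicate 3 tied for the lowest, so the knockdown spanned the whole wild-type range. Its pooled replicate SD of 0.218 was above that of 83% of genes. IGF1R differed by 0.04 ± 0.14 (SE) on the log2 scale, with an interval of -0.28 to 0.36 and an adjusted p of 0.981 in limma, and leaving out an array turned its sign, to -0.11 (knockdown replicate 1) or -0.04 (wild-type replicate 2). The second IGF1R probe set averaged 3.24 ± 0.19 for knockdown and 3.19 ± 0.14 for wild type (SD, n = 3 each) and differed by 0.05 ± 0.13 (SE) on the log2 scale. On both IGF1R probe sets the highest array was knockdown replicate 1 and knockdown replicate 3 was the lowest or tied for it.

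IGF2R, the clearance and lysosomal sorting receptor, read 4.78, 4.95 and 4.98 on the knockdown arrays and 4.85, 5.05 and 4.95 on wild-type arrays. The lowest value was a knockdown array and the highest a wild-type array, with the rest interleaved. IGF2R differed by -0.05 ± 0.11 (SE) on the log2 scale, with an interval of -0.28 to 0.19 and an adjusted p of 0.961 in limma, and leaving out an array turned its sign, to 0.01 (knockdown replicate 1) or 0.0033 (wild-type replicate 2). For both receptors the interval leaves room for a change of either sign, and for IGF2R it spans 82.2% to 114% of the wild-type signal.

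IGFBP2 had the largest difference of the members. It read 5.58, 6.05 and 5.88 on knockdown arrays 1, 2 and 3, against 5.47, 5.36 and 5.57 on wild-type arrays. Each knockdown array lay above each wild-type array, but knockdown replicate 1 cleared wild-type replicate 3 by only 0.01, the last digit to which the file is rounded. The means were 5.84 ± 0.24 for knockdown and 5.47 ± 0.11 for wild type (SD, n = 3 each). IGFBP2 thus differed by 0.37 ± 0.13 (SE) on the log2 scale, the knockdown standing at 129% of wild type with a 95% interval of 106% to 158%. Its unadjusted p was 0.0177 in limma, the 276th smallest of 18417, and its adjusted p was 0.902. An exact permutation test over arrays (two-sided) gave p = 0.1, which is the floor of such a test with 3 arrays a group. Its absolute difference was larger than that of 98.3% of genes, a description only, since the members were listed with earlier results known. The knockdown array with the lowest DDX5, replicate 1, was also the knockdown array with the lowest IGFBP2. With that array left out the difference was 0.50, and without knockdown replicate 2 it was 0.26. The unadjusted limma p for IGFBP2 missed 0.05 with knockdown replicate 2 (0.0706), knockdown replicate 3 (0.0511) or wild-type replicate 2 (0.0669) left out. Of 36 measured markers of other cell types, 6 were likewise higher in the knockdown with an unadjusted limma p under 0.05 and no overlap, by 0.27 to 0.50, and they are given at the end.

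IGFBP5, a binding protein that attaches to extracellular matrix, lay the other way. It read 3.92, 4.15 and 3.87 on the knockdown arrays and 4.20, 4.22 and 4.28 on wild-type arrays. Every knockdown array was below every wild-type array, with knockdown replicate 2 only 0.05 below the lowest of them. This gave -0.25 ± 0.11 (log2 difference ± SE), the knockdown standing at 83.9% of wild type with a 95% interval of 71.1% to 99.0%. The unadjusted p was 0.04 and the adjusted p 0.902 in limma, and the exact permutation test (two-sided) gave p = 0.1. Leaving out any array other than knockdown replicate 2 took the unadjusted limma p of IGFBP5 to between 0.0602 and 0.137. IGFBP5 lay among the dimmest 40% of genes. Its wild-type arrays agreed within an SD of 0.04, against 0.15 in the knockdown (n = 3 each).

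IGFBP3, the main carrier of IGFs in blood, read 4.99, 5.07 and 4.92 on the knockdown arrays and 5.21, 5.03 and 5.09 on wild-type arrays. The groups overlapped only through knockdown replicate 2, which lay above wild-type replicate 2. The log2 difference was -0.12 ± 0.10 (SE), with an interval of -0.34 to 0.11 and an adjusted p of 0.912 in limma. IGFBP1, no member of the set, is the neighbour of IGFBP3 on chromosome 7 with 0 protein-coding genes between them. It read 6.65, 7.16 and 6.56 on the knockdown arrays against 6.74, 6.71 and 6.69 on wild-type arrays. Knockdown replicate 2 stood above the other 5 arrays, while the other two knockdown arrays lay below all wild-type arrays. IGFBP1 differed by 0.08 ± 0.15 (SE) on the log2 scale.

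IGFBP4, which mainly restrains IGF action and is cut by the protease PAPPA, read 5.90, 5.98 and 6.23 on the knockdown arrays and 6.06, 5.89 and 5.90 on wild-type arrays. Knockdown replicate 3 was the highest array and the others were interleaved. The log2 difference was 0.09 ± 0.12 (SE), with an interval of -0.17 to 0.34 and an adjusted p of 0.93 in limma, and it was -0.01 without knockdown replicate 3. IGFBP7, a relative with weak IGF binding that is made by vessel walls among other sources, read 7.36, 7.18 and 7.13 on the knockdown arrays and 7.28, 7.23 and 7.04 on wild-type arrays. Both groups covered much the same range. The log2 difference was 0.04 ± 0.11 (SE), with an interval of -0.21 to 0.29 and an adjusted p of 0.971 in limma, and it was -0.03 without knockdown replicate 1 or without wild-type replicate 3. IGFBP6, which prefers IGF2, shares its probe set with C12orf57. That probe set read 6.72, 6.85 and 6.78 on the knockdown arrays and 6.81, 6.88 and 6.81 on wild-type arrays, a log2 difference of -0.05 ± 0.09 (SE) with overlapping groups.

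**Figure D2:**
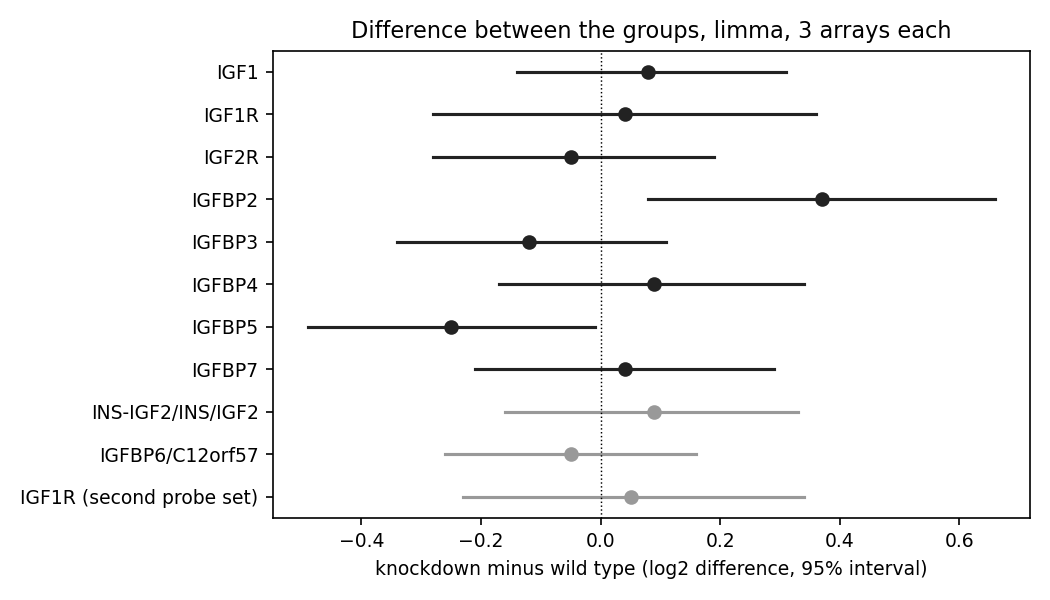
Knockdown minus wild type (log2 difference, limma, 3 arrays per group) with 95% intervals, for the 8 measured genes in black and for the shared or second probe sets in grey. The intervals of IGFBP2 (0.08 to 0.66) and IGFBP5 (-0.49 to -0.01) lie on either side of 0 before adjustment, and all others contain 0.

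The members had no common direction on any array. Against the wild-type mean, IGFBP2 was the member farthest up on knockdown replicates 2 and 3, by 0.58 and 0.41, and IGF1R on knockdown replicate 1, by 0.35. IGFBP5 was the member farthest down on all 3 knockdown arrays, by -0.31, -0.08 and -0.36 on replicates 1, 2 and 3. The median over the 8 members stayed within 0.05 of the wild-type mean on each of the 6 arrays.

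Set against the other members within each array, IGFBP2 was higher in the knockdown by 0.28 to 0.62 on the log2 scale. These within-array comparisons were chosen after the values were seen, and each shares the IGFBP2 signal. The groups did not overlap for 3 of 7 partners, namely IGF2R, IGFBP3 and IGFBP5, and likewise for 38.4% of all 18416 other genes set against IGFBP2, so the count says nothing particular about the members. The pair with IGFBP5 could not overlap, since IGFBP2 was higher and IGFBP5 lower on every knockdown array, and its values are a description with no test. IGFBP2 minus IGFBP5 was 1.66, 1.90 and 2.01 on knockdown arrays 1, 2 and 3 and 1.27, 1.14 and 1.29 on wild-type arrays. The lowest knockdown array lay 0.37 above the highest wild-type array, and the mean difference of 0.62 is the sum of the 2 genes' own differences. Only the change of this quantity between groups can be read, since signals of different probe sets have no common scale.

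**Figure D3:**
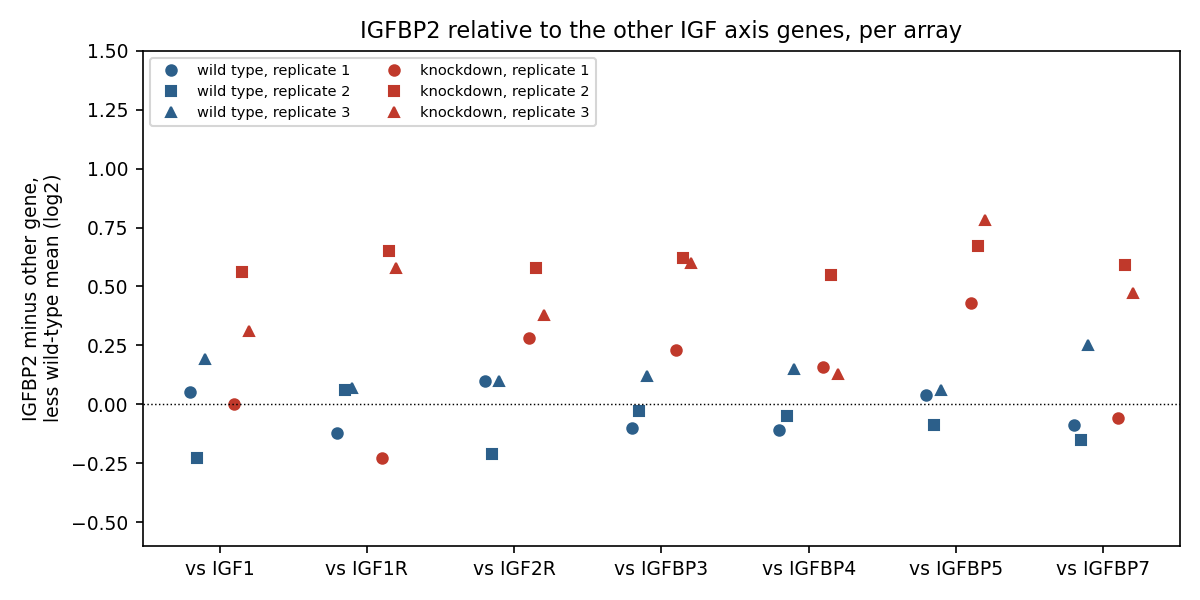
IGFBP2 minus each other member within an array (log2), shown after subtracting the wild-type mean of that pair, with wild type in blue and knockdown in red. The groups are apart against IGF2R, IGFBP3 and IGFBP5, and knockdown replicate 1 lies within the wild-type range or below it against IGF1, IGF1R and IGFBP7.

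Among 9209 genes at or above the median signal, those whose pattern over the 6 arrays was most like that of IGFBP2 were PIM1, a survival kinase (r = 0.996), LRRC45, a centrosomal protein (r = 0.994), and CHCHD6, a mitochondrial cristae protein (r = 0.991). These are Pearson correlations over 6 arrays that include the group difference, and 54 genes reached 0.95, so they are a description with no test. PIM1 differed by 0.16 ± 0.10 (log2 difference ± SE), with 6.22, 6.42 and 6.34 on the knockdown arrays and 6.17, 6.11 and 6.23 on wild-type arrays.

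Of 15 genes of the insulin receptor family and its adaptors, 7 lay above 0 and 8 below, with a median of -0.04, and none passed the adjusted threshold. INSRR, an insulin receptor relative that senses alkaline pH, had the highest value of the list. It read 5.09, 5.42 and 5.37 on the knockdown arrays and 4.80, 4.83 and 4.70 on wild-type arrays, with a gap of 0.26 between the groups. Its log2 difference was 0.52 ± 0.11 (SE), with an unadjusted p of 0.00106 and an adjusted p of 0.902 in limma. The insulin receptor INSR, which forms hybrids with IGF1R, lay lower with a gap of 0.02, at 4.82 ± 0.08 against 4.94 ± 0.03 (SD, n = 3 each). INSR differed by -0.12 ± 0.10 (log2, SE), with an unadjusted p of 0.245 in limma. Over all genes, 4.15% were lower without overlap. The adaptors IRS1 and IRS2, which link both receptors to PI3K, gave -0.13 ± 0.12 and 0.13 ± 0.11 (log2 difference ± SE). INSR, IRS1 and IRS2 are named for their roles, after their values were seen. GRB10, an adaptor that restrains both receptors, had the lowest value at -0.27 ± 0.19 (SE).

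Most genes of the PI3K, AKT, mTOR and FOXO branch, which relays IGF1R signals, had slightly negative values. Of 25 listed, 21 were measured, and 19 had a log2 difference below 0, beside 46.5% of all genes. The median was -0.06 and none passed the adjusted threshold or an unadjusted p under 0.05. The lowest was GSK3B, a kinase that AKT inhibits, at -0.23 ± 0.12 (SE), and the highest was AKT2 at 0.13 ± 0.12 (SE). Groups did not overlap for 2 of the 21, beside 10.1% of all genes in either direction. Both were lower, beside 4.15% of all genes in that direction. PDPK1, the kinase that activates AKT, lay at 7.31 ± 0.04 against 7.49 ± 0.05, and MTOR at 4.85 ± 0.03 against 4.91 ± 0.04 (SD, n = 3 each). The gaps were 0.09 and 0.01, and the unadjusted limma p of MTOR was 0.516. The mean signal of the 21 genes ran from 5.80 to 5.87 on the knockdown arrays and from 5.89 to 5.94 on the wild-type arrays. Of the 21 genes, 9 had a mean signal of 5.79 or more, a range in which 53.7% of all genes lay below 0, against 44.2% to 45.5% of genes in the dimmer ranges, and the part of signal level in the count was not tested. Without wild-type replicate 1, 14 of the 21 lay below 0, and after cyclic loess 16 did.

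Of 17 genes that carry IGFs or release them from binding proteins, 5 lay above 0 and 11 below, with a median of -0.02, and none passed the adjusted threshold. Without knockdown replicate 1, 9 lay above 0 and 8 below. Of the 17, 2 had an unadjusted p under 0.05 in limma, both higher, beside 3.02% of all genes in that direction. IGFALS, the acid-labile subunit that joins IGFBP3 or IGFBP5 in a ternary complex, read 6.32, 6.46 and 6.36 on the knockdown arrays and 6.06, 6.09 and 6.22 on wild-type arrays. PAPPA2, a protease that cuts IGFBP3 and IGFBP5, read 4.36, 4.32 and 4.14 on the knockdown arrays and 3.92, 3.86 and 4.14 on wild-type arrays. The IGFALS groups were 0.10 apart, and the PAPPA2 groups met at 4.14. Their log2 differences were 0.26 ± 0.10 and 0.30 ± 0.11 (SE), with an adjusted p of 0.902 each in limma. PAPPA2 lay among the dimmest 40% of genes. PAPPA, which cuts IGFBP4, gave -0.10 ± 0.11 (SE), and the lowest value of the list was that of the kallikrein KLK3 at -0.20 ± 0.14 (SE).

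The other lists had medians from -0.12 to 0. Of 13 genes with an IGFBP-type domain outside the family, 6 lay above 0 and 6 below, from HTRA4 at -0.14 ± 0.10 (SE) to CCN5 at 0.20 ± 0.11 (SE). Of 12 genes of the mannose-6-phosphate sorting route that IGF2R serves, 4 lay above 0 and 7 below, with a median of -0.06, from GNPTAB, which makes the tag, at -0.22 ± 0.16 (SE) to GNPTG at 0.11 ± 0.11 (SE). Of 14 FOXO target genes, which IGF signalling keeps low through AKT, 4 lay above 0 and 10 below, with a median of -0.05 (RICTOR is also in the PI3K list), from GADD45A at -0.25 ± 0.20 (SE) to CITED2 at 0.18 ± 0.13 (SE). IGF2BP2, an IGF2 mRNA-binding protein, gave -0.21 ± 0.22 (SE) and the antisense transcript IGF2-AS gave 0.14 ± 0.11 (SE), the extremes of 4 measured genes of that list, of which 3 lay below 0. The median of those 4 was -0.12, farther from 0 than that of any other of the 7 lists, and it was 0.01 without knockdown replicate 1. Leaving out 1 array also took the FOXO target genes to 7 above 0 and 7 below (knockdown replicate 1 or wild-type replicate 1). No gene of these 4 lists passed the adjusted threshold or an unadjusted p under 0.05 in limma.

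**Figure D4:**
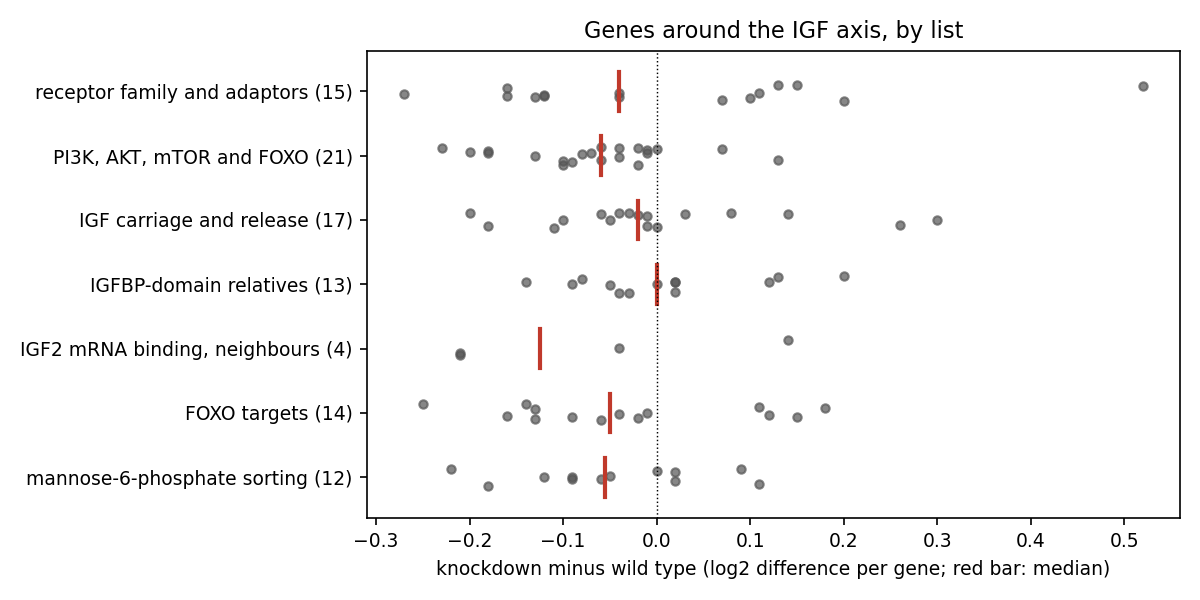
Knockdown minus wild type (log2 difference) for each measured gene of the 7 lists around the IGF axis, with the number of genes in brackets and a red bar at the list's median. In the PI3K, AKT, mTOR and FOXO list 19 of 21 genes lie below 0, and INSRR at 0.52 is the point farthest right.

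Markers of other cell types were read beside the members, since IGFBP7 and others are made by several cell types. All 6 arrays carry the label of the U-87 line, so the values were read as signals of these genes and not as amounts of other cell types. None of the marker genes passed the adjusted threshold in limma. Of 36 measured markers of 6 other cell types, 26 lay above 0, and 6 were higher in the knockdown at an unadjusted limma p under 0.05, which is 16.7% beside 3.02% of all genes, and 0 were lower. These 6, each without overlap, were CD68 of macrophages at 0.50 ± 0.15, CNP of oligodendrocytes at 0.38 ± 0.11, AQP4 of astrocytes at 0.37 ± 0.11, KRT19 of epithelia at 0.33 ± 0.11, STMN2 of neurons at 0.32 ± 0.11 and CLDN5 of endothelium at 0.27 ± 0.10 (log2 difference ± SE). They were picked for being higher at that limit, so sharing the direction of IGFBP2 (0.37) was fixed by the choice, and a small difference could not pass it. They are markers of 6 different cell types with 1 gene each. Whatever the p, groups did not overlap for 7 of the 36 markers that were higher and for 1 that was lower, an astrocyte marker. Those are 19.4% and 2.78%, beside 5.98% and 4.15% of all genes. AQP4 and STMN2 lay among the dimmest 40% of genes. Among mesenchymal glioma markers ANXA1 was lower without overlap, by -0.39 ± 0.12 (SE), with an unadjusted p of 0.00872 in limma. ANXA1 and the 6 markers named above were picked after their values were seen. Of 5 measured oligodendrocyte markers, 5 lay above 0, with a mean signal of 4.60 to 4.66 on knockdown arrays against 4.46 to 4.57 on wild-type arrays. Of 7 astrocyte markers, 4 lay above 0 (4.07 to 4.17 against 4.0 to 4.15), of 5 neuronal markers, 3 (4.95 to 5.05 against 4.84 to 4.90), and of 7 microglial or macrophage markers, 4 (4.25 to 4.32 against 4.17 to 4.29). Of 6 endothelial markers, 5 lay above 0 (4.45 to 4.60 against 4.43 to 4.46), and of 6 epithelial markers, 5 (5.0 to 5.13 against 4.92 to 4.98). The 9 mesenchymal glioma markers gave 5.59 to 5.77 against 5.60 to 5.71, with 6 above 0. The part of these markers in the IGFBP2 and IGFBP5 values was not tested.

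**Figure D5:**
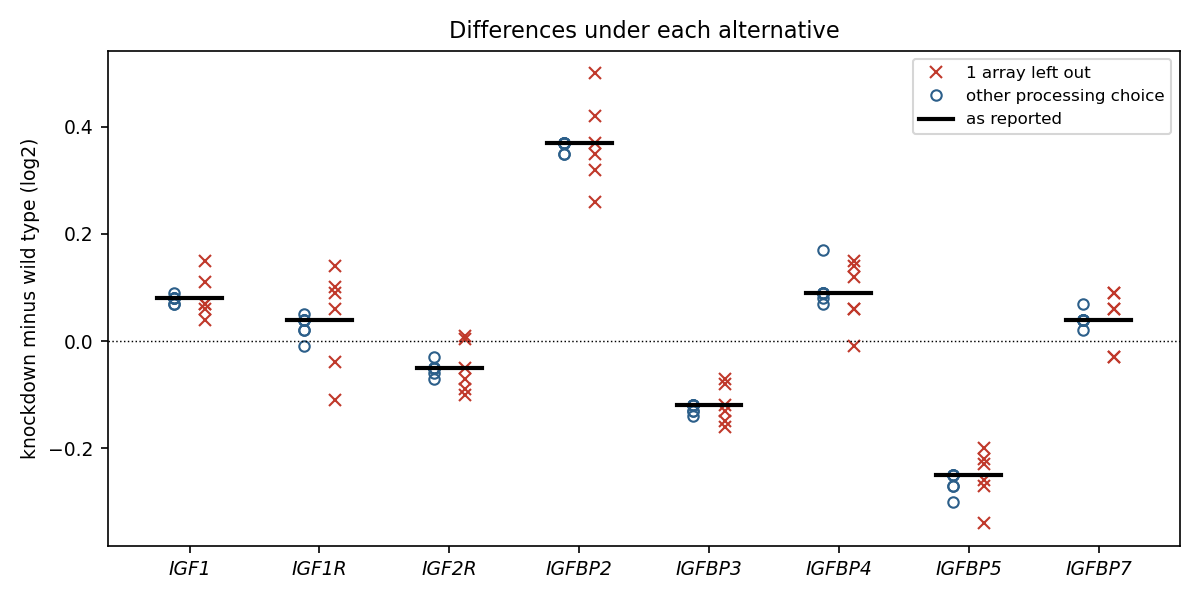
Knockdown minus wild type (log2 difference) of each member as reported (black bar), with 1 array left out (crosses) and under the other processing choices (circles). IGFBP2 stays between 0.26 and 0.50 and IGFBP5 between -0.34 and -0.20, while IGF1R, IGF2R, IGFBP4 and IGFBP7 cross 0.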

How the data were processed

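The deposited table holds log2 signals of 29096 probe sets on 6 arrays, made by the authors with RMA per the submitters' processing notes and rounded to 2 decimals. The software and version of RMA are not given in the sources used. By the platform annotation, 19460 probe sets carried 1 gene symbol, 1754 several and 7882 none. The probe set of highest mean stood for each of 18417 genes. limma 3.58.1 in R 4.3.3 (lmFit and eBayes, two-sided, group as the only term) was fitted to all genes with Benjamini-Hochberg adjustment and a threshold of 0.05, and single genes also had an exact permutation test. Precision is limited by the number of arrays (median standard error 0.12). Simulated data of 18417 genes had independent normal noise and 200 genes changed by 0.5, 1, 1.5 or 2 on the log2 scale. The fit recovered 52.4% of genes changed by 0.5 and 100% of those changed by 1, and 8.09% of calls were false. Many genes with large changes ease the adjusted threshold. These rates therefore need not hold for the real arrays, where no gene passed. The members and lists were chosen with earlier results of these data known, and no list was tested. Named genes are the members, DDX5, the highest and lowest of each list and the 3 genes most like IGFBP2, and others are named by role or after their values were seen. No genome build is stated for the arrays. Alternatives were median centring, cyclic loess, a filter on the dimmest 40% of genes, averaging over probe sets, every probe set, an intensity trend, array weights, a replicate block and leaving out each array.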

Additional observations from a re-analysis of the deposited data

How the results depend on the processing

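No gene passed the adjusted threshold in limma under any alternative run. IGFBP2 and IGFBP5 kept their directions in all alternatives that measured them (IGFBP5 is lost with the dimmest 40% of genes), with an adjusted p of 0.661 to 0.998 and 0.682 to 0.998. The unadjusted p of IGFBP2 was lowest without knockdown replicate 1 (0.002) and highest without knockdown replicate 2 (0.0706), and that of IGFBP5 was lowest without knockdown replicate 2 (0.00908) and highest without knockdown replicate 3 (0.137). Between-group gaps were 0.02 and 0.09 after median centring and 0.01 and 0.09 after cyclic loess, for IGFBP2 and IGFBP5. IGF1 and IGFBP3 kept their signs. Leaving out 1 array gave log2 differences of -0.11 to 0.14 for IGF1R (-0.01 with array weights), -0.10 to 0.01 for IGF2R (0.0033 without wild-type replicate 2), -0.01 to 0.15 for IGFBP4 and -0.03 to 0.09 for IGFBP7, so these 4 changed sign, and the cause was not tested. With 1 array left out, list medians ran from -0.07 to 0.03 (receptor family), -0.18 to 0.01 (IGF2 mRNA binding), -0.06 to 0.01 (FOXO targets), -0.04 to 0.01 (carriage and release), -0.03 to 0.02 (IGFBP-type domain), -0.07 to -0.01 (mannose-6-phosphate sorting) and -0.07 to -0.06 (PI3K branch). Genes with an unadjusted p under 0.05 numbered 327 higher and 240 lower without the dimmest 40% of genes, which tests fewer genes, and between 320 and 805 higher and 223 and 591 lower with 1 array left out. The replicate number did not pair the arrays throughout. Deviations of same-numbered arrays correlated at 0.268, -0.027 and 0.125 for replicates 1, 2 and 3. The value for replicate 1 was the highest of all cross-group pairs, so these 2 arrays shared some of their deviation. Knockdown replicate 2 correlated best with wild-type replicate 3 (0.109), and knockdown replicate 3 with wild-type replicate 2 (0.17). With the replicate number as a block, IGFBP2 gave 0.37 (adjusted p = 0.791 in limma), IGFBP5 -0.25 (adjusted p = 0.791), and 0 genes passed the threshold.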
